A study of Mus musculus with 6 samples.

Results

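The nuclear genes for the respiratory chain and the ATP synthase were compared between CD4+ T cells of wild-type (WT) mice and of mice without cystathionine beta-synthase (CBS-KO). Their members were all genes whose symbols begin as the accepted subunit names do (Ndufa, Ndufb, Ndufc, Ndufs, Ndufv, Sdha to Sdhd, Uqcr, Cyc1, Cox4 to Cox8 and Atp5), each represented by its brightest probe set among those that name 1 gene. This gave 90 genes of the 19937 that a probe set names alone, with 114 probe sets behind them. They were 36 of complex I, 7 complex I assembly factors (Ndufaf genes, which the symbols take in but which are not subunits), 4 of complex II, 9 of complex III, 17 of complex IV and 17 of the ATP synthase. All mice were of the C57BL/6 strain, and the series gives an age of 6 weeks; WT and CBS-KO cells were each measured on 3 Affymetrix arrays, which the labels call biological replicates. No source used here gives how the CBS deficiency was made, in which cells, or whether an array held the RNA of 1 mouse or of several, so the p-values measure the spread between these arrays.

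Complex I takes electrons from NADH and complex II from succinate; coenzyme Q carries them to complex III, and cytochrome c carries them on to complex IV, which passes them to oxygen. The proton gradient that complexes I, III and IV build drives the ATP synthase. Most subunits are encoded in the nucleus and a few in mitochondrial DNA, and several complex IV and ATP synthase subunits come in tissue forms made by separate genes. Hydrogen sulfide, one of the products of the CBS enzyme, feeds electrons to coenzyme Q at low levels and inhibits complex IV at high levels, and resting T cells rely on respiration while activated ones add glycolysis.

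Cbs itself did not separate the groups. Its log2 levels, here and below log2(intensity + 16), were 7.37, 7.48 and 7.19 on the WT arrays 1 to 3, and 7.25, 7.63 and 7.35 on the CBS-KO arrays 1 to 3, so the groups overlapped (difference 0.06, two-sided exact permutation p = 0.7). The stretch of Cbs that these probes read is unknown here, and this value therefore says nothing about the labels. The array medians lay between 7.37 and 7.55. Erythroid, neutrophil and monocyte markers stood higher on all CBS-KO arrays: 10 of 10 tested erythroid, 13 of 14 neutrophil and 13 of 14 monocyte and macrophage genes passed as higher. The mean level of the erythroid list was 7.66 to 8.36 in WT and 10.48 to 11.86 in CBS-KO, that of the neutrophil list 6.93 to 7.67 and 10.42 to 10.78, and that of the monocyte list 7.75 to 8.47 and 9.76 to 10.32. B cell markers set CBS-KO 2 apart: all 7 lay above every WT array there, while the list stood at -0.16, 0.97 and -0.77 relative to its WT mean on CBS-KO 1 to 3. Of these 7, Ighm, the heavy chain of IgM, passed as higher, and 5 had a negative difference between the groups. Of 11 CD4 T cell markers 5 passed as lower, and their mean level was 12.39 to 12.52 in WT and 11.37 to 12.03 in CBS-KO, with Cd4 between 12.49 and 13.04 on the CBS-KO arrays. Y-linked genes gave signal on CBS-KO 1 and 2 and on no other array. In such bulk RNA, more cells of a type and more RNA per cell cannot be told apart, and what share these differences had in any value below was not tested.

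Of the 86 tested members 3 passed the test for a difference between the groups, all of them higher in CBS-KO: Cox6b2 of complex IV, Atp5g1 of the ATP synthase and Uqcrc1 of complex III (limma, adjusted p under 0.05 over all 20856 tested probe sets). No member was lower. Over all tested probe sets 5.09% passed as higher and 4.47% as lower, and over the 12776 tested genes, each by its brightest probe set, 6.62% and 4.45%, so 3 of 86 (3.49%) is no larger a share than the whole array gave. At an unadjusted p under 0.05, 17 members were higher and 1 lower (13.6% and 17.3% of all probe sets, 17.1% and 16.3% of all genes). The 3 CBS-KO arrays lay above all WT arrays in 18 members and below them in 3 (15% and 21.7% of all probe sets, 18.8% and 22.4% of all genes). The other 4 members, Ndufa4l2, Cox7a1, Cox7b2 and Cox8b, lay under the filter on low values, at log2 levels between 5.11 and 7.03 on every array, and were not tested. The members nevertheless leaned upwards by a small amount: 69 of 86 had a positive difference, against 48% of all tested genes and 42.8% of all probe sets, and their median difference was 0.20 against -0.01 for those genes. This lean is a description of genes that vary together and carries no test.

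**Figure D1:**
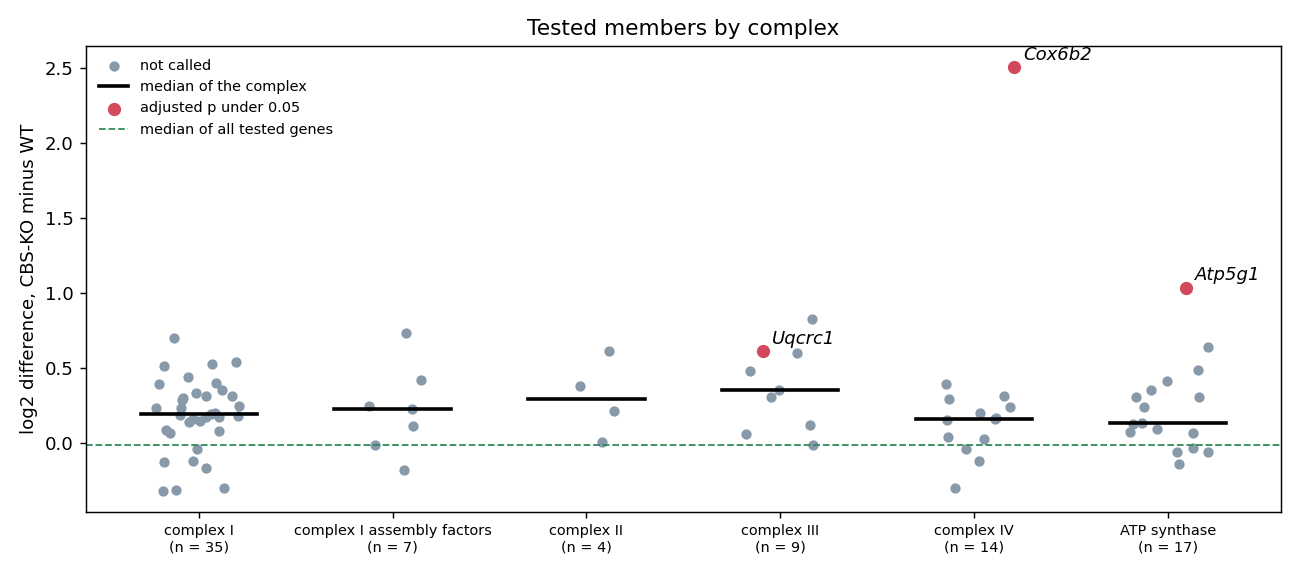
Difference between the group means (CBS-KO minus WT, log2) of each of the 86 tested members, by complex; black bars are the medians of the complexes and the dashed line is the median of all tested genes. The medians lie between 0.14 (ATP synthase) and 0.36 (complex III), an order that changes with the arrays used, and Cox6b2, Atp5g1 and Uqcrc1, in red, are the members that passed.

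Cox6b2 showed the largest difference. It encodes a form of subunit VIb of complex IV, the peripheral subunit at which complex IV dimers meet, and is known for its expression in testis, whereas Cox6b1 encodes the form found in most tissues. Cox6b2 had log2 levels of 7.68, 7.46 and 7.46 on the WT arrays, in the order 1 to 3 used throughout, and of 10.24, 9.20 and 10.67 on the CBS-KO arrays. The groups lay far apart, with CBS-KO 2 the lowest of the CBS-KO arrays. The difference was 2.51 (SE 0.36, 95% confidence interval 1.65 to 3.36, limma adjusted p = 0.0156), or 5.68-fold on the scale of intensity + 16. Cox6b1 had levels of 11.57, 11.68 and 12.12 in WT and 12.12, 11.69 and 12.28 in CBS-KO, which overlapped (difference 0.24, SE 0.20, adjusted p = 0.459). Within the arrays, the Cox6b2 value less the Cox6b1 value rose by 2.26 from WT to CBS-KO, with no overlap between the groups (two-sided exact permutation p = 0.1, the smallest that 3 against 3 arrays allow; 0.16 after Benjamini-Hochberg adjustment over 8 such pairs, chosen after the values were seen). The erythroid marker list, in the same CBS-KO arrays 1 to 3, stood 3.44, 2.42 and 3.80 above its WT mean, the same order as Cox6b2. That order was shared by 79 of the 86 tested members and by 19 of 19 cell cycle genes, so it singles out neither Cox6b2 nor the erythroid list. Whether erythroid RNA had a part in the Cox6b2 values was not tested.

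Atp5g1 was the member with the next largest difference. It is 1 of the genes Atp5g1, Atp5g2 and Atp5g3, which encode the same mature subunit c, the protein of the rotor ring of the ATP synthase, behind different import signals. Its levels were 11.69, 11.67 and 11.55 in WT and 12.80, 12.35 and 12.88 in CBS-KO, without overlap. The difference was 1.04 (SE 0.15, interval 0.68 to 1.39, limma adjusted p = 0.0156), or 2.05-fold. Its sister genes, named here after their values were seen, had smaller differences that did not pass: Atp5g2 0.07 (interval -0.15 to 0.28, adjusted p = 0.661) and Atp5g3 0.36 (interval -0.06 to 0.77, adjusted p = 0.215). Atp5g2 had 3 tested probe sets, and the 0.07 is that of the brightest. Another lay at 9.68, 9.76 and 9.95 in WT and 10.08, 10.28 and 10.23 in CBS-KO, without overlap (0.40, interval 0.10 to 0.69, limma adjusted p = 0.0857). The remaining probe set overlapped between the groups (difference 0.08, adjusted p = 0.864). Between the brightest probe sets, Atp5g1 less Atp5g2 rose by 0.97 and Atp5g1 less Atp5g3 by 0.68, each with no overlap (exact permutation p = 0.1, adjusted 0.16). The dimmer of the 2 Atp5g1 probe sets, at 7.30 to 7.55 in WT and 7.62 to 7.76 in CBS-KO, had a difference of 0.25 and did not pass (adjusted p = 0.183).

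Uqcrc1 encodes core protein 1 of complex III, which faces the matrix. Its levels were 11.27, 11.35 and 11.41 in WT and 12.00, 11.74 and 12.12 in CBS-KO. The groups did not overlap, and the difference was 0.61 (SE 0.12, interval 0.34 to 0.89, limma adjusted p = 0.0296), or 1.53-fold. Uqcrc2, the partner core protein, named here after its values were seen, had levels of 12.55, 12.49 and 12.33 against 12.59, 12.28 and 12.87 (difference 0.12, interval -0.24 to 0.49, adjusted p = 0.635). The calls of Cox6b2, Atp5g1 and Uqcrc1 all ended when WT 1, WT 2, WT 3 or CBS-KO 1 was left out, with adjusted p-values between 0.0519 and 0.138, while the differences there were 2.40 to 2.58 for Cox6b2, 0.98 to 1.07 for Atp5g1 and 0.58 to 0.65 for Uqcrc1.

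**Figure D2:**
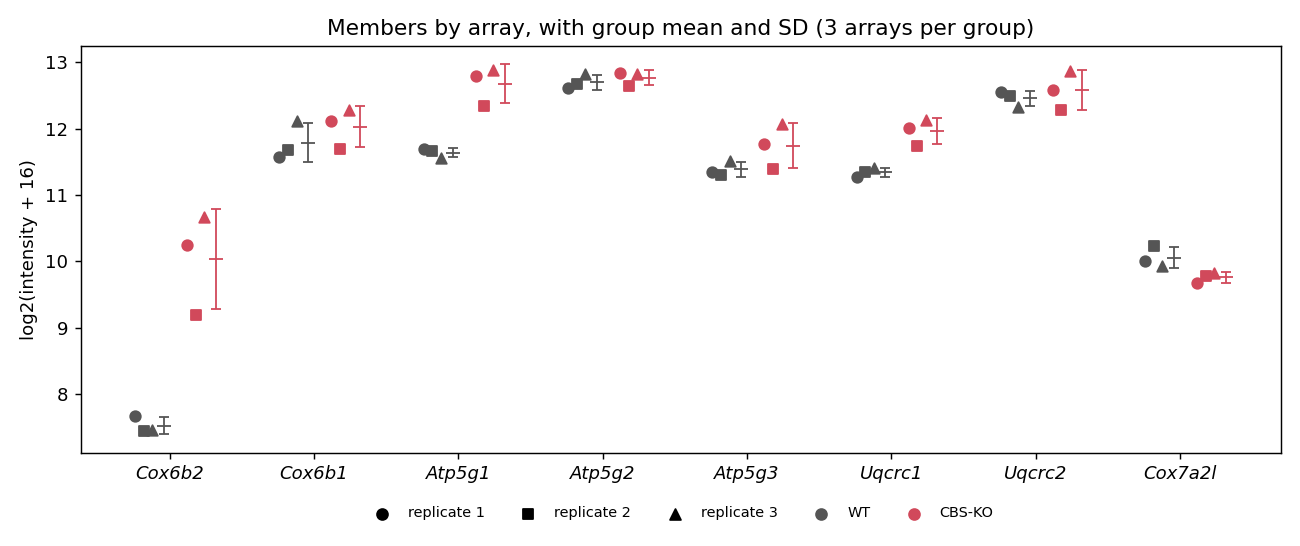
Level of 8 members on each array (log2(intensity + 16); grey WT, red CBS-KO; the marker shape gives the replicate), with the mean and SD of 3 arrays beside the points. By the brightest probe set of each gene, Cox6b2, Atp5g1 and Uqcrc1 separate the groups, while Cox6b1, Atp5g2 and Uqcrc2 overlap. Levels of different genes come from different probes and are not comparable.

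The promoters of these 3 genes are printed because they carry the calls. Each runs from 250 bases before to 50 after the gene's start in RefSeq, build GRCm38.p6, 5′ to 3′ on the gene's strand: Cox6b2 chr7:4753045-4753344 (minus strand), Atp5g1 chr11:96075582-96075881 (minus strand) and Uqcrc1 chr9:108936398-108936697 (plus strand). Capitals mark every match, on either strand, to 4 motifs: GCGCATGCG, the core of the site of nuclear respiratory factor 1; CCGGAAG, an ETS site of the kind GABP binds; AAGATGGCG, a YY1 site; and CCAAT, the box bound by NF-Y, which was added after the sequences were seen.
Cox6b2: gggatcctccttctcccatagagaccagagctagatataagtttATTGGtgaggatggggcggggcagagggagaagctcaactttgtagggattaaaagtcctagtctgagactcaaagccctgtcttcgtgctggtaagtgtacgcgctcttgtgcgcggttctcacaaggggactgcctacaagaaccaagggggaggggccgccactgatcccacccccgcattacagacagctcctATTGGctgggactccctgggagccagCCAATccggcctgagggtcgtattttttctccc
Atp5g1: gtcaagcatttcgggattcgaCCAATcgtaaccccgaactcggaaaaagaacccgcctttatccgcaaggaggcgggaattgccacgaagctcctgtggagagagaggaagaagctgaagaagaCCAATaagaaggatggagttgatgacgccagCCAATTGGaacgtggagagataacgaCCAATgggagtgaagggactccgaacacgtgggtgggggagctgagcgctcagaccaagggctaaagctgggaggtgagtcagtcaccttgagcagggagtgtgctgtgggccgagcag
Uqcrc1: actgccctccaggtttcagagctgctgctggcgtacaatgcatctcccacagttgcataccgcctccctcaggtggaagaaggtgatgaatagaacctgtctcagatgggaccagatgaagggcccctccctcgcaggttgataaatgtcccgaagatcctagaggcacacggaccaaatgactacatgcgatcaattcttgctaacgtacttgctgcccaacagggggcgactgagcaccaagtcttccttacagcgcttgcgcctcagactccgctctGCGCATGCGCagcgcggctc
In Uqcrc1 the capitals are 2 overlapping matches to GCGCATGCG, on opposite strands, that begin 31 and 32 bases after the start. Cox6b2 and Atp5g1 held no match to the first 3 motifs, and instead 3 and 5 matches to CCAAT (in Atp5g1, 1 pair overlaps on opposite strands). At least 3 matches to CCAAT were found for 7 of the 73 members (of 90) that the table holds by gene ID (9.59%) and for 3.88% of all 27025 genes in it, and at least 1 for 43.8% and 41.1%. Cox6b2, with 3 matches, and Atp5g1, with 5, are among these 7, and CCAAT was added after their promoters were seen. The 9.59% is therefore no independent count. The core of the nuclear respiratory factor 1 site was found for 10 of the 73 members (13.7%) against 1.95% of all genes, the GABP letters for 18 (24.7%) against 9.93% and the YY1 letters for 7 (9.59%) against 1.64%. Among the tested members in the table, the median difference was 0.33 with and 0.22 without the nuclear respiratory factor 1 core, 0.22 and 0.24 for the GABP letters, 0.32 and 0.21 for the YY1 letters, and 0.22 and 0.25 for CCAAT. These are matches of letters, not shown binding.

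Complex I had 35 tested members, of which none passed in either direction. At an unadjusted p under 0.05, 6 were higher and 1 lower, where 17.1% of all tested genes were higher and 16.3% lower. A positive difference was found in 28 (80%, against 48% of all tested genes), and the median was 0.20. Ndufv1, the flavoprotein that takes the electrons from NADH, had the largest difference. Its levels were 10.47, 10.40 and 10.60 in WT and 11.24, 10.75 and 11.60 in CBS-KO, without overlap (0.70, SE 0.21, limma adjusted p = 0.0775). Ndufs1, the large iron-sulfur subunit that receives electrons from it, had levels of 9.91, 9.81 and 10.01 against 10.10, 9.55 and 10.64 (0.19, SE 0.26, adjusted p = 0.681). Here CBS-KO 2 lay below every WT array and CBS-KO 1 and 3 above every one. Ndufa6, an accessory subunit, had the lowest difference, with levels of 10.60, 10.52 and 10.38 against 10.10, 9.89 and 10.57 (-0.31, SE 0.19, adjusted p = 0.303). Ndufa4, once counted with complex I and now placed in complex IV, had a difference of 0.30 (SE 0.28, adjusted p = 0.505). The 1 lower at the unadjusted threshold was Ndufs4, a subunit needed late in assembly, named here after its values were seen. It lay at 11.74, 11.78 and 11.91 against 11.58, 11.36 and 11.60, the only complex I subunit with all CBS-KO arrays below all WT arrays (-0.30, interval -0.54 to -0.05, adjusted p = 0.105). In 7 subunits all CBS-KO arrays lay above all WT arrays. Over all tested genes the shares were 18.8% above and 22.4% below.

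None of the 7 complex I assembly factors passed, and 5 had a positive difference. Ndufaf4, which acts early in assembly, had levels of 8.73, 8.47 and 8.77 in WT and 9.54, 8.80 and 9.82 in CBS-KO, where CBS-KO 2 lay just above the highest WT array (0.73, SE 0.27, limma adjusted p = 0.120). Ndufaf5 had levels of 7.70, 7.56 and 7.59 against 7.52, 7.36 and 7.43, all CBS-KO arrays below all WT arrays (-0.18, SE 0.10, adjusted p = 0.276). Of 8 tested complex I assembly factors whose symbols fall outside the rule, Tmem126b, a membrane component of the assembly complex, was lower, with levels of 8.94, 8.97 and 8.90 against 8.40, 8.15 and 8.32 (-0.65, SE 0.12, adjusted p = 0.0293).

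All 4 subunits of complex II, succinate dehydrogenase, had positive differences and none passed. Sdhc, a membrane anchor, came closest, with levels of 10.71, 10.68 and 10.70 in WT and 11.12, 10.95 and 11.17 in CBS-KO, without overlap (0.38, SE 0.10, limma adjusted p = 0.0563). Sdhd, the other anchor, had the larger difference and the larger spread, with levels of 10.38, 10.24 and 10.44 against 10.99, 10.41 and 11.52 (0.62, SE 0.27, adjusted p = 0.170). The catalytic flavoprotein Sdha lay at 12.05, 11.98 and 12.03 against 12.05, 11.76 and 12.28, a difference of 0.01 with an interval of -0.31 to 0.33. The iron-sulfur subunit Sdhb had a difference of 0.21 (SE 0.15, adjusted p = 0.386).

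Complex III had a median of 0.36 over 9 members, of which 8 had a positive difference; the median was 0.19 without CBS-KO 3 and 0.60 without CBS-KO 2. Besides Uqcrc1, no member passed. Cyc1, the cytochrome c1 subunit that hands electrons to cytochrome c, had levels of 10.89, 10.86 and 11.17 in WT and 11.62, 11.22 and 11.90 in CBS-KO, without overlap (0.60, SE 0.19, limma adjusted p = 0.0844). Uqcr11, a small subunit, had the largest difference but also a WT array that stood apart from the others: its levels were 9.30, 9.36 and 10.41 against 10.76, 9.81 and 11.00 (0.83, SE 0.40, adjusted p = 0.216). Uqcrh, the hinge subunit, lay lowest, at -0.01 (interval -0.29 to 0.28).

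In complex IV, 1 of 14 tested members passed, Cox6b2, and 11 had a positive difference; the median was 0.16. Among the subunits found in most tissues, Cox8a had levels of 11.76, 11.78 and 11.91 in WT and 12.18, 12.01 and 12.20 in CBS-KO, without overlap (0.31, SE 0.09, limma adjusted p = 0.07). Cox4i1 (0.21, SE 0.21), Cox5a (0.29, SE 0.23), Cox6a1 (0.03, SE 0.25) and Cox7a2 (0.15, SE 0.20) overlapped between the groups. The muscle, lung and germ cell forms other than Cox6b2 had small differences that did not pass: 0.04 for Cox4i2 (interval -0.25 to 0.33), -0.04 for Cox6a2 (-0.41 to 0.34) and -0.12 for Cox8c (-0.39 to 0.15). Cox7a1 and Cox8b stayed under the filter, at 6.54 to 6.95 and 6.57 to 7.03.

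Cox7a2l, described as a factor of the supercomplexes of complexes III and IV, went the other way. What it does in these mice was not tested. Its brightest probe set had levels of 10.01, 10.23 and 9.93 in WT and 9.67, 9.78 and 9.83 in CBS-KO, without overlap (-0.29, SE 0.13, limma adjusted p = 0.167). Its other probe set, 10453254, had levels of 9.52, 9.56 and 9.53 against 8.63, 9.004 and 9.05 and passed as lower (-0.64, SE 0.15, adjusted p = 0.0451), as did the mean of both (-0.47, adjusted p = 0.0447). It was the only probe set of any member that passed as lower. On the means of a gene's probe sets, Cox7a2l was the only member that passed as lower.

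Of 17 ATP synthase members, Atp5g1 passed, 13 had a positive difference, and the median was 0.14, with 0.06 without CBS-KO 3 and 0.29 without CBS-KO 2. The catalytic F1 subunits differed little: Atp5b, which makes ATP at its active sites, had levels of 13.24, 13.28 and 13.23 in WT and 13.56, 13.31 and 13.61 in CBS-KO, without overlap (0.24, SE 0.09, limma adjusted p = 0.121). Atp5a1, its partner in the F1 head, had levels of 12.46, 12.42 and 12.45 against 12.57, 12.19 and 12.86 (0.10, SE 0.16, adjusted p = 0.737). Atp5c1, the central stalk that turns in the head, lay lowest (-0.13, SE 0.17, adjusted p = 0.641). Outside the subunits, Atpif1, the inhibitor of ATP hydrolysis by the synthase, was higher, with levels of 11.72, 11.60 and 12.24 against 13.28, 12.75 and 13.50 (1.33, SE 0.24, adjusted p = 0.0259), 1 of 4 in its list.

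The 3 CBS-KO arrays took the same order in almost every member. CBS-KO 3 lay above CBS-KO 1, and CBS-KO 1 above CBS-KO 2, in 79 of 86 members (91.9%), against 38.5% of all tested genes. This order was not particular to the members. It was found in 75 of 77 mitochondrial ribosomal protein genes (97.4%) and 16 of 16 tricarboxylic acid cycle and pyruvate dehydrogenase genes. Of the genes with cytosolic ribosomal symbols, 35 of 63 took it (55.6%). CBS-KO 2 was the lowest of the 3 in 82 members (95.3%), against 45.1% of all tested genes. The exceptions were Cox7a2l and the tissue forms Cox8c, Cox6a2 and Cox4i2. Relative to the WT mean of each gene, the median member stood at 0.26 in CBS-KO 1, -0.11 in CBS-KO 2 and 0.49 in CBS-KO 3, and at -0.04, -0.03 and 0.08 on the WT arrays. CBS-KO 1 and 3 lay above all WT arrays in 63 and 73 of the 86 members, and CBS-KO 2 in 20. Of all 12776 tested genes, CBS-KO 1, 2 and 3 lay above all WT arrays in 4636, 4445 and 5337. CBS-KO 2 lay below all WT arrays in 42 of the 86 members, Ndufs1, Atp5a1 and Sdha among them. It did so in 5177 of the 12776 genes. The SD of the median member was 0.105 within WT and 0.326 within CBS-KO, against 0.093 and 0.195 for all tested genes.

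**Figure D3:**
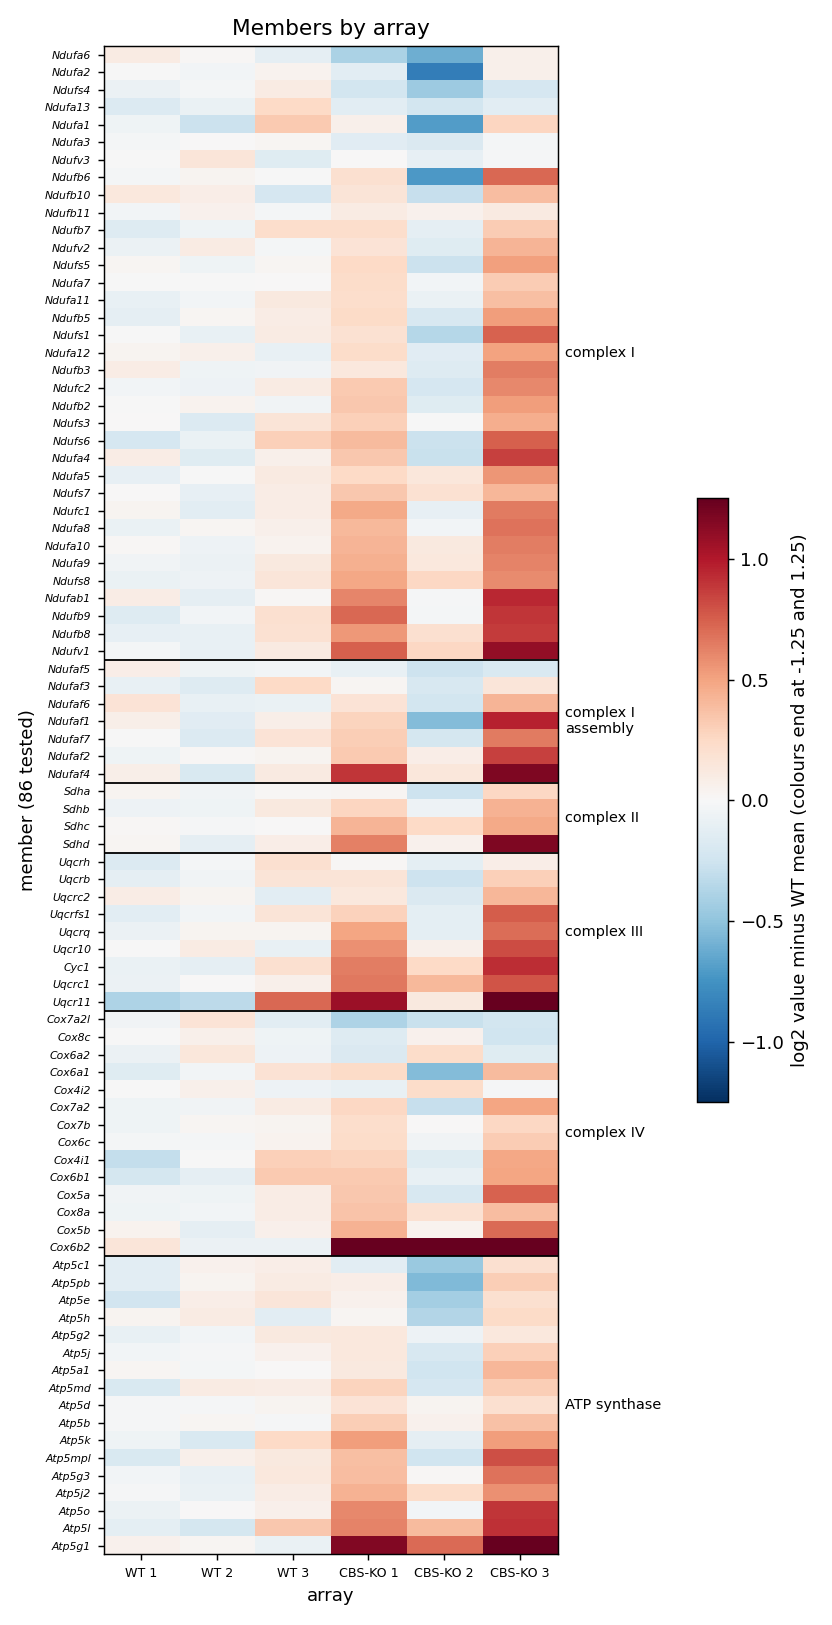
Level of each of the 86 tested members on each array relative to its WT mean (log2; red higher, blue lower), ordered by complex and, within it, by the difference between the groups. CBS-KO 3 is the reddest column and CBS-KO 2 the palest or bluest across all complexes; values past the ends of the scale, such as those of Cox6b2, share the end colour.

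Some of the other lists measured on these arrays took the same order and others did not. The 19 cell cycle genes stood 1.71, 0.59 and 2.08 above their WT mean in CBS-KO 1 to 3, with this order in 19 of 19, and 8 of them passed as higher. The erythroid markers stood at 3.44, 2.42 and 3.80 (9 of 10 in this order), the neutrophil markers at 3.53, 3.17 and 3.18 (1 of 14) and the monocyte markers at 1.84, 2.41 and 1.87 (0 of 14). The CD4 T cell markers stood at -0.68, -0.44 and -1.10, in the opposite sense, and so did the B cell markers, at -0.16, 0.97 and -0.77, highest in CBS-KO 2 in 7 of 7. The part of cell cycle, erythroid, T cell and B cell RNA in the values of the members was not tested.

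**Figure D4:**
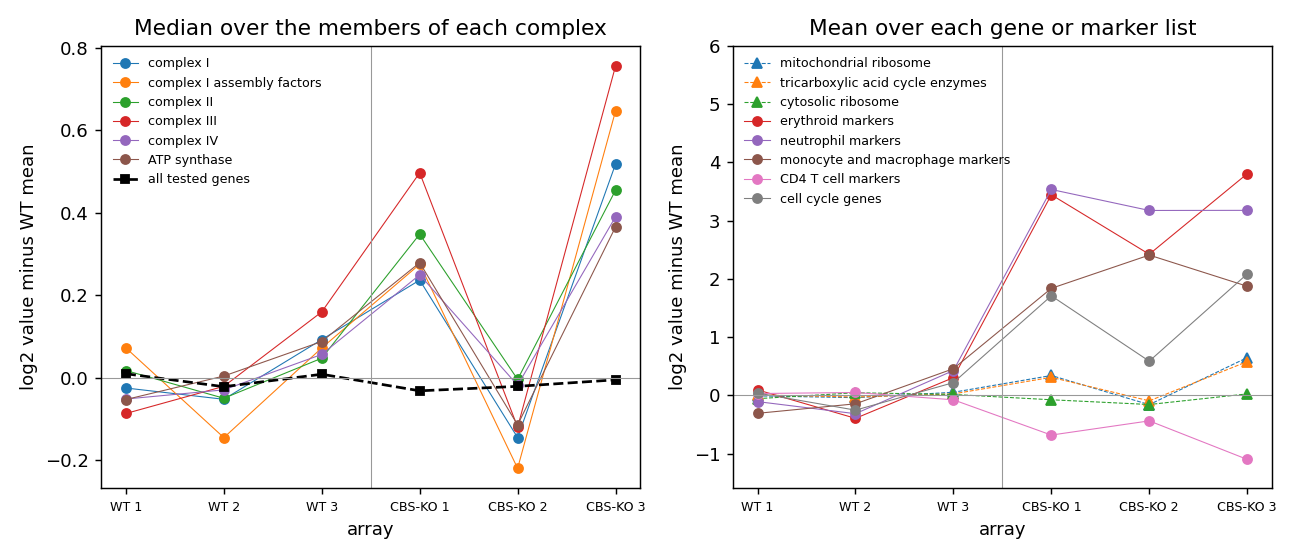
Left, the median over the members of each complex on each array relative to the WT means (log2); right, the mean over other gene and marker lists on the same scale; the thin lines only join the points of a list. CBS-KO 2 is the lowest of the 3 CBS-KO arrays for every complex, and for the mitochondrial ribosome (0.34, -0.16 and 0.65), cell cycle and erythroid lists, while all tested genes stay near 0.

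How many members passed turned on single arrays, as did the share of all tested probe sets that passed. Without CBS-KO 2, 33 of 86 members were higher (38.4%) and none lower, where 16.3% of all tested probe sets passed as higher: 12 of complex I, 2 assembly factors, 2 of complex II, 4 of complex III, 6 of complex IV and 7 of the ATP synthase. The median difference was then 0.38. Without CBS-KO 3 the same number passed as with all arrays, 3, and the median was 0.07; that of the assembly factors was then -0.03. Without WT 1, WT 2, WT 3 or CBS-KO 1 none passed, where 0.326%, 0.259%, 2.04% and 0.571% of all tested probe sets passed as higher. Since Y-linked signal was found on CBS-KO 1 and 2 and on no other array, sex cannot be told apart from what else separates CBS-KO 3, or the WT arrays, from these 2. CBS-KO 1 and 2 both gave this signal, and the median member stood at 0.26 and -0.11 on them relative to WT. The 95% interval of the median member reached 0.42 to either side of its difference, so with 3 arrays per group a difference the size of the median lean was not detectable for a typical member.

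**Figure D5:**
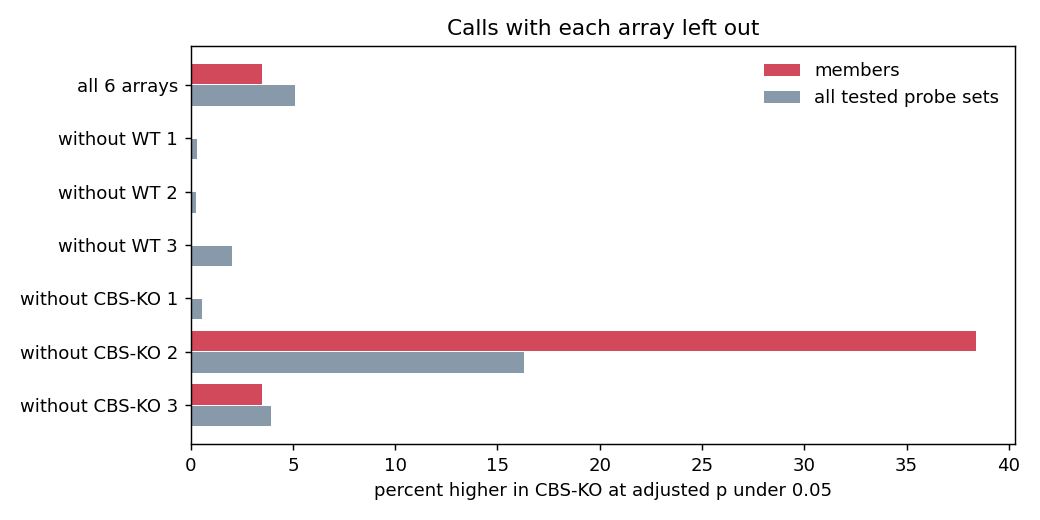
Percentage of the 86 tested members (red) and of all tested probe sets (grey) higher in CBS-KO at an adjusted p under 0.05, with all 6 arrays and with each array left out. Without CBS-KO 2 the members reach 38.4% against 16.3%; with all arrays they reach 3.49% against 5.09%.

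The rest of the oxidative machinery was read from lists of related genes, from which genes that did not pass are named after their values were seen. None of 77 mitochondrial ribosomal protein genes passed, and 67 had a positive difference (median 0.23); none of 63 tested genes with cytosolic ribosomal symbols was higher, 13 had a positive difference (median -0.09), and the 1 that was lower, Rps6ka3 (-0.77, SE 0.12, limma adjusted p = 0.0199), is a kinase that the symbol pattern takes in. Of 16 tricarboxylic acid cycle and pyruvate dehydrogenase genes none passed and 14 had a positive difference (median 0.24). Both mitochondrially encoded subunits that the array names, ND3 of complex I and COX2 of complex IV, had slightly lower levels on every CBS-KO array. ND3 lay at 13.62, 13.70 and 13.68 in WT and 13.57, 13.51 and 13.48 in CBS-KO (-0.15, SE 0.06, adjusted p = 0.123), and COX2 at 13.48, 13.62 and 13.52 against 13.43, 13.40 and 13.38 (-0.13, SE 0.06, adjusted p = 0.184). Neither passed, and neither took the order of the nuclear members.

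Among carriers of electrons, Cycs, cytochrome c, had a difference of 0.17 (SE 0.17), and of 13 tested genes for carriers and for coenzyme Q synthesis only Coq4 was higher, with levels of 8.63, 8.48 and 8.26 in WT and 9.44, 9.13 and 9.58 in CBS-KO (0.93, SE 0.17, limma adjusted p = 0.0269). The 16 tested regulators of mitochondrial biogenesis gave no call (median -0.01). The DNA-packaging factor Tfam had a difference of -0.21 (SE 0.21), Nrf1 of 0.22 (SE 0.15) and Gabpa of -0.01 (SE 0.16). None of 18 complex IV, 4 complex II and 3 complex III assembly genes passed, nor did any of 6 mitochondrial carriers and channels, where Vdac1 had the largest difference (0.77, SE 0.23, adjusted p = 0.0782). The 4 enzymes of mitochondrial sulfide oxidation did not pass, although Sqor, which passes electrons from sulfide to coenzyme Q, lay higher on every CBS-KO array (0.60, SE 0.19, adjusted p = 0.0893), as did Ethe1 (0.64, SE 0.18, adjusted p = 0.0661). In glycolysis 2 of 13 genes were higher: Hk2, which phosphorylates glucose (0.94, SE 0.20, adjusted p = 0.0380), and Tpi1, triose phosphate isomerase (1.05, SE 0.24, adjusted p = 0.0419), while the median of the list was 0.03.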

How the data were processed

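Per the labels' protocols, biotinylated cRNA from 6 ug of total RNA was hybridised to Affymetrix arrays. The authors deposited 1 linear intensity per probe set and array; no source used here gives their background correction, normalization or summary, so the centring of the arrays is unknown. Genes were named through GEO's platform annotation (21640 of 34760 probe sets named 1 gene, 1321 several, 11799 none); 3 probe sets that match the symbols name several genes and were left out.

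Values were log2(intensity + 16). Probe sets with a mean above the 40th percentile (6.99) were tested with limma 3.58.1 in R 4.3.3 (lmFit and eBayes with a trend, two-sided, Benjamini-Hochberg over all tested probe sets, threshold 0.05), on code tested on simulated data. Single values were tested by exact permutation (scipy 1.17.1). A fold change on this scale understates the change of dim genes. No p-value was computed over the members, which, like the gene lists, were chosen with earlier results of these data known.

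Named members are those that passed, the highest and lowest of each complex, and a list of core subunits and tissue isoforms; others are marked as chosen after their values were seen. From each gene list up to 3 genes that passed were named.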

Additional observations from a re-analysis of the deposited data

How the results depend on the processing

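Cox6b2, Atp5g1 and Uqcrc1 passed under every alternative except the 4 arrays left out that the report names. The count of members that passed as higher was 5 after quantile normalization, 5 with the replicate block, 21 with sex as a model term, 43 in the arrays without Y-linked signal, 6 when each gene's probe sets were averaged, and 0 to 33 with 1 array left out. The count that passed as lower was 1 with averaged probe sets and 1 over every probe set of the members (Cox7a2l in both). A common array median, other filters, offsets of 1 and 64, other variance models and a 1.5-fold threshold left these counts at 3 and 0. The median difference ran from 0.07 to 0.38 with 1 array left out and was 0.49 with sex as a model term or in the arrays without Y-linked signal. Both of these settings rest on CBS-KO 3 alone, the highest CBS-KO array in 80 of 86 members. No count of passing members is therefore given for them, and their median is no test of the genotype or of sex. The complexes changed places: without CBS-KO 3 the median of complex II (0.22) was above that of complex III (0.19), and without WT 2 that of the ATP synthase (0.18) was above that of complex IV (0.16).

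Among the 86 members, 69 had a positive difference with all arrays, 56 without CBS-KO 3, 75 without CBS-KO 2 and 77 when sex was a term. The following signs are those of the named members that turned, none of which had passed. With sex as a model term, as in the arrays without Y-linked signal, the differences became 0.20 for Atp5c1, -0.013 for Cox4i2, 0.068 for Ndufa6 and 0.079 for Uqcrh. Sdha became -0.020 after quantile normalization and Uqcrh 0.026 with a common array median. With 1 array left out the ranges that crossed 0 were, for named members and Cbs, -0.063 to 0.27 for Atp5a1, -0.30 to 0.030 for Atp5c1, -0.054 to 0.11 for Cox4i2, -0.15 to 0.32 for Cox6a1, -0.17 to 0.038 for Cox6a2, -0.015 to 0.38 for Cox7a2, -0.085 to 0.46 for Ndufs1, -0.12 to 0.14 for Sdha, -0.095 to 0.091 for Uqcrh and -0.048 to 0.15 for Cbs. The cause of these changes was not tested.

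Same-numbered arrays of the groups had correlated deviations of 0.06, 0.16 and 0.11, so the labels' numbers were not taken to pair the samples; each array correlated best with its own number, a hint from the data and not from the design. The number of arrays, 3 per group, limits every value.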

Other observations

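Members with several probe sets did not always give 1 answer. Of 17 such genes, 6 had tested probe sets with differences of opposite sign, none of which passed. Atp5l, a membrane subunit of the ATP synthase, had 5 probe sets with differences from -0.13 to 0.64, the brightest being the highest. Atp5md, another membrane subunit, ran from -0.01 to 0.41 over 3 probe sets, and Ndufs3, a core subunit of complex I, from -0.08 to 0.25 over 2. Both probe sets of Uqcr11 were positive (0.54 and 0.83), as were those of Cox5b (0.39 and 0.57). Which copies of these small genes each probe set reads, pseudogenes included, is unknown here, so a single value of such a gene is uncertain.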
